A study of Mus musculus with 6 samples.

Results

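Rab GTPases are small membrane-bound switches that direct vesicles between the compartments of a cell. The probe sets studied here were chosen by gene symbol alone: each names exactly 1 gene in the annotation of the MG_U74Av2 array, and that gene has a Rab symbol with a number, an optional letter and an optional digit. This gave 44 probe sets of 33 genes, out of 12488 probe sets on the array, of which 10855 name exactly 1 gene (8252 genes). A probe set is a group of short oligonucleotides that together query 1 transcript. The RNA came from adrenal glands of 2 mouse strains, BPH (hypertensive, "Blood Pressure High") and BPL (hypotensive, "Blood Pressure Low"), with 3 arrays each. The labels give no age, sex, treatment or number of animals. They also do not say whether the arrays of a strain came from separate animals, so the p-values measure the spread between these arrays, which may be technical.

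A Rab protein is active when it carries GTP and inactive when it carries GDP. Exchange factors load GTP, GTPase-activating proteins end the signal, and GDP dissociation inhibitors draw the inactive protein back off the membrane. Active Rabs recruit effectors such as tethers, motors and lipid kinases, and each Rab marks its own step of traffic. In the adrenal medulla, chromaffin cells release catecholamines from secretory granules, a step in which Rab3 and Rab27 proteins take part. In the cortex, steroid-producing cells take up cholesterol from lipoproteins and store cholesterol esters in lipid droplets. In cells generally, Rab5 is known to act in endocytosis and Rab18 at lipid droplets.

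No Rab transcript passed the threshold between the strains. Of 44 probe sets, 35 (27 genes) were bright enough to be tested, and 0 of the 35 were called in limma at an adjusted p under 0.05, against 2.52% of all 7293 tested probe sets (184, of which 114 were higher and 70 lower in BPH). At an unadjusted p under 0.05 there were 5 Rab probe sets, 4 higher and 1 lower, which is 14.3% of those tested, against 19.3% over all probe sets. The 3 arrays of one strain lay wholly above those of the other for 11 of the 35 (9 with BPH above, 2 with BPH below), or 31.4%, against 26.5% over all. The lowest adjusted p of a Rab probe set was 0.0721, for Rab5a. Over 20 alternative analyses the count stayed at 0, with a lowest adjusted p of 0.0545. The count over all probe sets changed when single arrays were left out, which also leaves fewer arrays to test with. Leaving out BPH 1 gave 83 calls, leaving out BPH 2 gave 42 and leaving out BPH 3 gave 49. Leaving out BPL 1 gave 94 calls, leaving out BPL 2 gave 153 and leaving out BPL 3 gave 361.

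Differences are given as BPH minus BPL on the log2 scale, so that 1 is a 2-fold change. None of the 35 differed by 1 or more, and 3.09% of all tested probe sets did. A share this small leaves few to be expected among 35, so this does not set the Rabs apart. The same holds for the absence of calls. The differences ran from -0.48 for Rab6a to 0.86 for Rab33a. The median was 0.07 for the Rab probe sets and 0.03 for all probe sets, and 23 of the 35 were positive (65.7%, against 53.3% over all). The Rab median was 0.03 without BPL 2, 0.12 without BPH 2 and 0.12 without BPL 3. For 29 of the 35 (82.9%) the 95% interval of the difference lay within 1 on either side of 0, against 79.1% over all. It lay within 0.5 for 15 of the 35, and for 1828 of all 7293. The residual SD between arrays of a strain had a median of 0.19 for Rab probe sets and 0.22 for all tested probe sets.

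**Figure D1:**
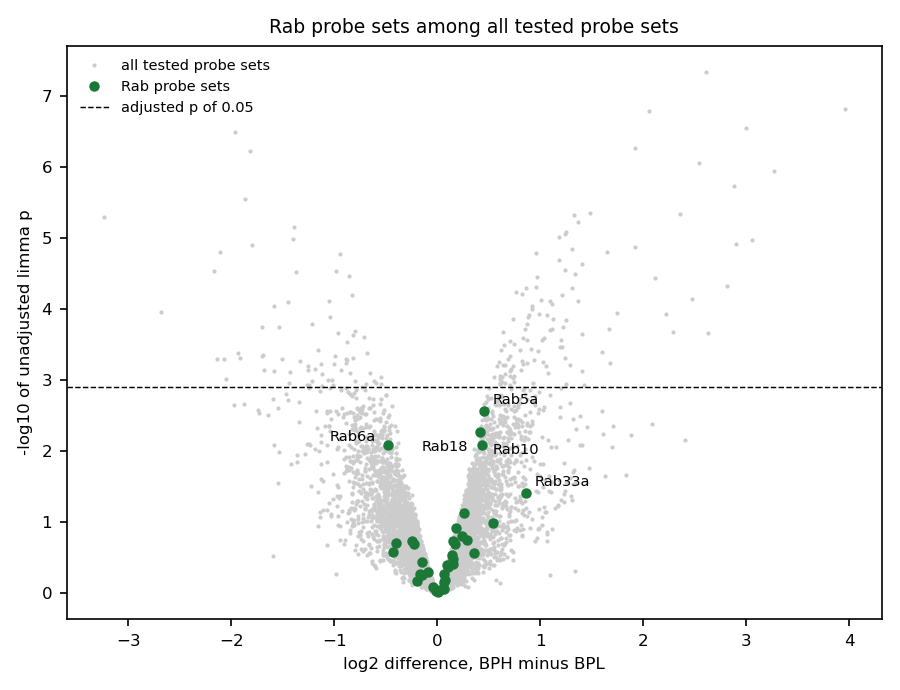
Each point is 1 tested probe set, with its log2 difference (BPH minus BPL) on the horizontal axis and the negative log10 of its unadjusted limma p on the vertical axis. Rab probe sets are green, all 7293 are grey, and all 35 Rab points lie below the dashed line at an adjusted p of 0.05, with Rab5a closest to it at 0.0721.

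Some features of the arrays bear on these values. In whole glands, fewer cells of a type and less RNA per cell cannot be told apart. The adrenal label was borne out by cortical and chromaffin markers. The summed intensity of 15 cortical probe sets lay between 716816 and 834834 on every array. For 12 chromaffin probe sets the sum was 275872 to 314690 in BPH and 143795 to 271048 in BPL, with 1 of 10 tested called higher. Brown fat markers summed to 42866 to 72101 in BPH and 112272 to 327372 in BPL over 9 probe sets, and 2 of 7 tested were called lower. BPL 2 had the highest sum. Skeletal muscle markers (19 probe sets) summed to 171540 on BPH 1 and 200027 on BPL 2, against 12922 to 26767 on the other 4 arrays, and 3 of the 19 lay under the floor (an intensity of 201.3) on every array. BPH 1 and BPH 2 were processed on fluidics station 2 and the other 4 arrays on station 1, so a comparison within station 1 sets BPH 3 alone against the BPL arrays.

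BPL 2 also held the lowest Rab values most often. It was the lowest of the 6 arrays for 13 of the 35 Rab probe sets (37.1%), and for 29.5% of all tested probe sets. On BPL 2 the Rab probe sets lay a median of -0.08 (log2) from their own mean over the arrays, and the medians of the BPH arrays lay between 0.07 and 0.09. The median over all tested probe sets was -0.04 on BPL 2. The part of the marker differences in the Rab values was not tested. Leaving out the arrays highest in muscle markers does not remove the brown fat and chromaffin differences. On BPH 2 and BPH 3 brown fat markers summed to 42866 and 56255, and on BPL 1 and BPL 3 to 158260 and 112272. Chromaffin markers summed to 275872 and 291496 on the same BPH arrays, and to 214341 and 271048 on the same BPL arrays. Without BPH 1 and BPL 2, the arrays highest in muscle markers, limma called 0 Rab probe sets, and the Rab median was 0.05. At an unadjusted p under 0.05 there were then 4 of the 35, against 1089 of all 7293.

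**Figure D2:**
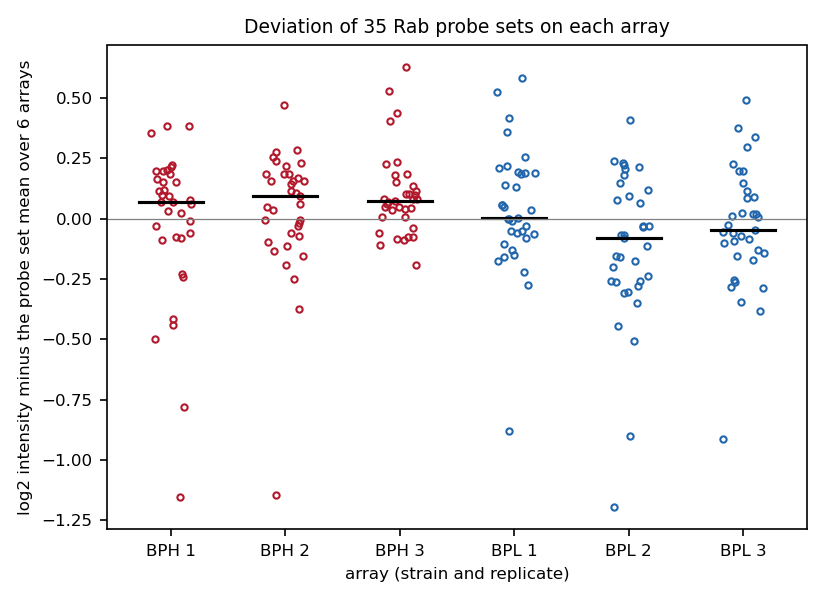
Each open circle is 1 of the 35 tested Rab probe sets on 1 array, plotted as its log2 intensity minus its own mean over the 6 arrays, with BPH in red and BPL in blue. Black bars are medians, which run from 0.09 on BPH 2 to -0.08 on BPL 2.

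To give the sequence around the start of the Rab genes that came closest to the threshold, the 250 bases before the annotated start were read from RefSeq promoter windows of the GRCm38.p6 assembly. Windows were matched by gene number for 30 of the 33 genes (34 windows), and Rab2a, Rab4a and Rab18 were not matched. The windows of Rab5a (chr17:53478984-53479233, plus strand), Rab6a (chr7:100607336-100607585, plus strand) and Rab10 (chr12:3309970-3310219, minus strand) follow from 5′ to 3′, with motif matches in capitals:
Rab5a: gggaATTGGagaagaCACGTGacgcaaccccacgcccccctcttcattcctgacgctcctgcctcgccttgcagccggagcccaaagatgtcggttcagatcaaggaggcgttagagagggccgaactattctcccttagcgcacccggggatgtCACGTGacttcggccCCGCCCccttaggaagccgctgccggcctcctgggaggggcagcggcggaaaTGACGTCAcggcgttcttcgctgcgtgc
Rab6a: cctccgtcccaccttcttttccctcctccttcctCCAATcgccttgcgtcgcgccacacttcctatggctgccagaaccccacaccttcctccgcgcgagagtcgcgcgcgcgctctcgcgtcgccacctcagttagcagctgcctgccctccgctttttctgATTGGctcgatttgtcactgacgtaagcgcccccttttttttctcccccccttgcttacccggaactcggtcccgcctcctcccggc
Rab10: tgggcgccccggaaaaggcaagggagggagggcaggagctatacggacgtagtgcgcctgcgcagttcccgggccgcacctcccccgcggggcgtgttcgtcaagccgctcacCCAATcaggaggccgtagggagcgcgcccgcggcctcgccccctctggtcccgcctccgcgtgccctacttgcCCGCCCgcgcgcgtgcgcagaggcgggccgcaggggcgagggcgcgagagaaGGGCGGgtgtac

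The motifs searched on both strands were the GC box GGGCGG, the CCAAT box CCAAT, the E-box CACGTG, the cyclic AMP response element TGACGTCA and the TATA box TATAAA. The matches in these windows did not overlap each other. Rab5a had 1 GC box, 1 CCAAT box, 2 E-boxes and 1 cyclic AMP response element, Rab6a had 2 CCAAT boxes, and Rab10 had 2 GC boxes and 1 CCAAT box. Over the Rab windows, 67.6% (23 of 34) held a GC box, against 32.7% of all 32851 windows of the same length. The base composition of the 2 sets of windows was not compared, so these shares do not show an enrichment of motifs. The shares were 41.2% (14 windows) against 33.8% for the CCAAT box and 11.8% (4 windows) against 6.02% for the E-box. They were 5.88% (2 windows) against 1.55% for the cyclic AMP response element and 5.88% (2 windows) against 12.4% for the TATA box. The cyclic AMP response element was in the windows of Rab5a and Rab25 alone among the matched Rab genes, and the 2 genes had differences of 0.46 and -0.04. A match shows only that these letters occur. The strains' own sequences were not analysed here.

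Rab5a, which drives the fusion of early endosomes after uptake at the plasma membrane, showed the smallest p. It had intensities of 7022, 7281 and 7144 on the BPH arrays and 5239.7, 4927 and 5485 on the BPL arrays. All BPH values were above all BPL values, and the BPH arrays were within a few percent of each other. The means were 7149 ± 129.7 and 5217 ± 279.9 (SD, n = 3), a log2 difference of 0.46 (95% interval 0.20 to 0.71, limma adjusted p = 0.0721). The difference was 0.46 within station 1 (adjusted p = 0.723), 0.43 without the arrays high in muscle markers and 0.42 without BPL 2. Over the 20 alternatives it ran from 0.42 to 0.49 and the adjusted p from 0.0545 to 0.723. Of its close relatives, Rab5c had 0.16 (interval -0.19 to 0.50) and Rab5b -0.20 (interval -1.22 to 0.82), both with overlapping strains. Rab5b had the widest interval of any tested Rab, with 901, 349.3 and 1194 in BPH and 923.9, 896.5 and 686.4 in BPL.

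The endosomal Rabs, those of the Rab5 group included, were mixed in sign, 9 of 15 tested probe sets being positive, with none called. Rab11a, which returns cargo from recycling endosomes to the surface, had 2 probe sets with all BPH arrays above all BPL arrays. The first had 10595, 10496 and 10052 in BPH and 9414, 8729 and 9348.5 in BPL, a log2 difference of 0.18 (interval -0.06 to 0.42, limma adjusted p = 0.384). The second had 0.29 (interval -0.16 to 0.73), and 0.10 without BPL 2, the array with its lowest value (1187). Rab31, which moves cargo between the trans-Golgi network and endosomes, had differences of 0.54 and 0.35 at its 2 probe sets, both with intervals that included 0. The first was 0.24 without BPL 1 and 0.88 without the arrays high in muscle markers. The second had 1131 on BPL 2, against 2022 to 2792 on the other arrays, and its difference without that array was -0.01, and 0.62 without BPL 1. Rab4b (-0.15), Rab21 (-0.09) and Rab25 (-0.04) had small negative values, that of Rab4b being -0.01 without BPL 3 and -0.07 without BPH 1, and Rab4a and Rab11b each had 0.07.

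Rab14, which acts between endosomes and the Golgi, was measured by 3 probe sets that did not point the same way. On the first the intensities were 16516, 16727 and 15524 in BPH and 14766, 14268 and 14928 in BPL. The BPH arrays were higher throughout, by 0.15 (interval -0.09 to 0.39). On the second they were 749.8, 1286.5 and 1465 in BPH and 1857, 1429 and 1227 in BPL, a difference of -0.40 (interval -1.06 to 0.26) with overlapping strains. It was -0.11 without BPH 1, -0.24 without BPL 1, -0.14 without the arrays high in muscle markers and -0.02 within station 1. On the third the difference was -0.17 (interval -0.77 to 0.43), and it was 0.00 without BPL 1 and -0.38 without BPL 3. All 3 intervals included 0, so the direction for Rab14 was not settled.

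Among Rabs of the early secretory pathway, Rab18 and Rab6a had differences of similar size and opposite sign, and neither passed the threshold. Rab18, found on the endoplasmic reticulum and on lipid droplets, had 15746, 16748 and 15093 in BPH and 11356, 11447 and 12972 in BPL. Every BPH value exceeded every BPL value. The means were 15862 ± 833.7 and 11925 ± 908.1 (SD, n = 3), a log2 difference of 0.41 (interval 0.16 to 0.67, limma adjusted p = 0.093). It was 0.34 within station 1 (adjusted p = 0.8) and 0.39 without the arrays high in muscle markers, and ran from 0.34 to 0.48 over the alternatives.

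Rab6a, which governs retrograde and post-Golgi transport, was the 1 Rab with an unadjusted p under 0.05 in the other direction. Its first probe set had 3404, 4387 and 4539.6 in BPH and 5506, 5649 and 5921.5 in BPL. No BPH array reached the lowest BPL array. The log2 difference was -0.48 (interval -0.80 to -0.16, limma adjusted p = 0.111), and -0.33 within station 1 (adjusted p = 0.819). The second probe set had 2790, 3774 and 4002 in BPH and 3635, 4420 and 4336 in BPL. These overlapped between the strains, with a difference of -0.24 (interval -0.62 to 0.14) that was -0.08 without BPH 1 and -0.03 without the arrays high in muscle markers. On both probe sets BPH 1 was the lowest array.

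Rab33a, a Golgi-related Rab known mainly from neurons and immune cells, had the largest difference of the tested Rabs. Its intensities were 1153, 1227.5 and 1198.5 in BPH, and 1008, 386.1 and 724.7 in BPL. The BPH arrays were tightly grouped above a spread-out BPL group, with a wide interval (0.06 to 1.67) around a difference of 0.86 (limma adjusted p = 0.231). The lowest value was on BPL 2. That array had the lowest sum of chromaffin markers (143795) and the highest sums of skeletal muscle (200027) and brown fat markers (327372). The part of these in the Rab33a value was not tested. Without BPL 2 the difference was 0.48, and within station 1 it was 0.87 (adjusted p = 0.834). Its relative Rab33b, which takes part in Golgi traffic and autophagy, had negative differences. Its first probe set had 1538, 1451 and 1374 in BPH and 1633, 1659 and 1803 in BPL, wholly separated, with a difference of -0.22 (interval -0.59 to 0.15, adjusted p = 0.485). The second had -0.43 (interval -1.24 to 0.39), with its lowest value on BPH 1 (1050.1). Its difference was 0.02 within station 1 and 0.04 without BPH 1, and leaving out BPH 2 gave -0.67 and BPH 3 gave -0.65.

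Rab1a and Rab2a, general factors of transport between the endoplasmic reticulum and the Golgi, had small differences. Rab1a had 3303, 4350.4 and 4092 in BPH and 4435, 3812 and 3573 in BPL, a difference of -0.01 (interval -0.36 to 0.33). Rab2a had 9225, 9620.2 and 8684 in BPH and 8644, 7124 and 8754 in BPL, a difference of 0.17 (interval -0.11 to 0.46) that was 0.08 without BPL 2 and 0.07 without the arrays high in muscle markers. Both genes thus overlapped between strains. Rab34, which acts on Golgi and lysosome position, had -0.14 (interval -0.66 to 0.38).

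The Rabs of transport from the Golgi to the plasma membrane had positive differences at all 4 tested probe sets, without a call. Rab10, known for the delivery of glucose transporter vesicles to the surface, had at its first probe set 7349.9, 6400 and 5947 in BPH and 5227.5, 4699 and 4619.6 in BPL. The groups did not overlap. Means of 6566 ± 715.8 and 4849 ± 330.5 (SD, n = 3) gave a log2 difference of 0.43 (interval 0.14 to 0.73, limma adjusted p = 0.112). It was 0.30 within station 1 (adjusted p = 0.835) and 0.33 without the arrays high in muscle markers. The second Rab10 probe set had 1961, 2251 and 2047 in BPH and 2168, 1600.2 and 1906 in BPL, which overlapped, with 0.15 (interval -0.23 to 0.53). That difference was 0.04 without BPL 2, 0.09 without BPH 2, 0.25 without BPL 1 and 0.08 without the arrays high in muscle markers. Rab8a, which carries vesicles from the trans-Golgi network outward, had 0.24 (interval -0.11 to 0.59), and 0.07 without BPL 2, the array with its lowest value (4584). Rab12 had 0.11.

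**Figure D3:**
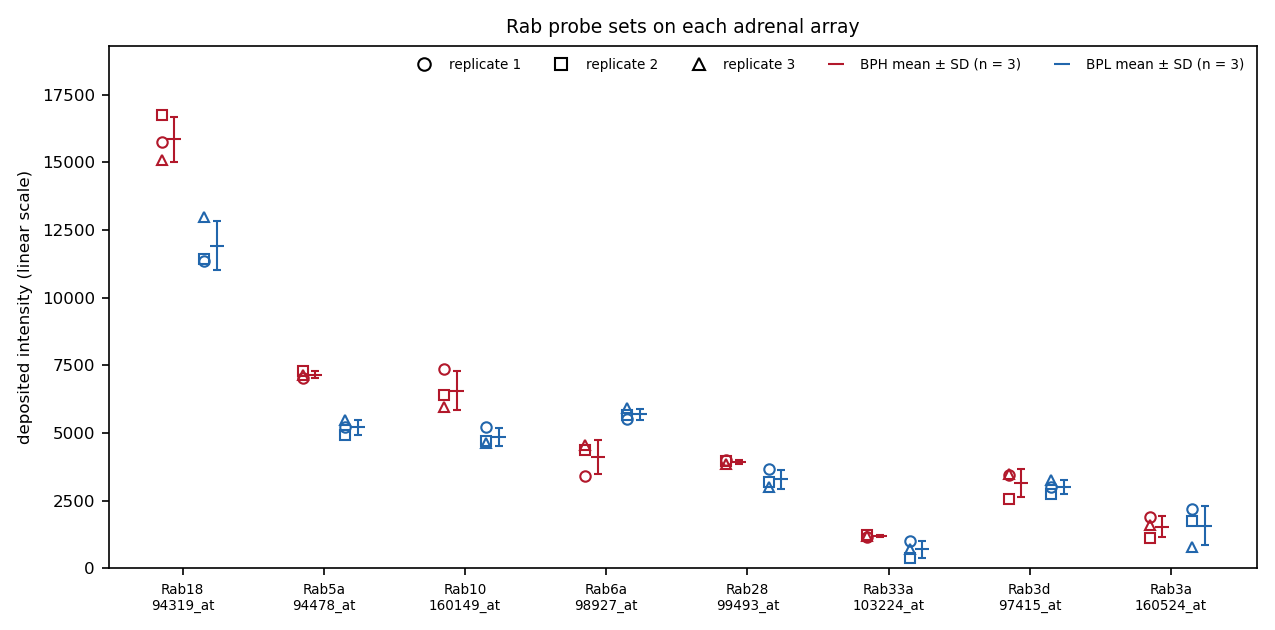
Deposited intensities of 8 Rab probe sets on every array, with BPH in red, BPL in blue, a marker shape per replicate, and bars for the mean ± SD of 3 arrays. Rab18, Rab5a, Rab10, Rab28 and Rab33a are higher on all BPH arrays, Rab6a is lower on all BPH arrays, and Rab3d and Rab3a overlap. Heights of different probe sets cannot be compared with each other.

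The tested Rabs of secretory granules, Rab3a and Rab3d, each had a difference of 0.06, with a wide interval for Rab3a. Rab3a, which primes granules and synaptic vesicles for release, had 1889, 1138 and 1598.5 in BPH and 2210.5, 1742 and 784.9 in BPL. The widest gap was within BPL, and the difference of 0.06 had an interval from -0.78 to 0.91. The value was -0.38 without BPL 3 and -0.10 without BPH 1. Rab3d, a granule Rab of exocrine and other secretory cells, had 3434, 2576 and 3474 in BPH and 3001, 2754 and 3252 in BPL. The strains overlapped, with a difference of 0.06 (interval -0.30 to 0.43, limma adjusted p = 0.861). Rab27 was not analysed here.

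Late endosomal and lysosomal Rabs had differences from 0.00 to 0.14 over 4 probe sets. Rab7, the main Rab of late endosomes and lysosomes, had 6007, 7057 and 6008 in BPH and 5705, 5982 and 7411 in BPL at its first probe set, with a difference of 0.00 (interval -0.32 to 0.32). The second Rab7 probe set had 0.03 (interval -0.40 to 0.45), and on both the highest array was BPL 3. Rab9, which returns receptors from late endosomes to the trans-Golgi network, had 0.09 and non-overlapping strains (7171, 6999 and 7009 in BPH, 6787, 6685 and 6380.5 in BPL). Its interval, -0.15 to 0.34, included 0. Rab24, linked to autophagy, had 0.14. Rab28, a Rab of cilia, had 3986, 3969.5 and 3847 in BPH and 3680.5, 3180.5 and 3015 in BPL. All BPH arrays were higher, by 0.26 (interval -0.03 to 0.56, limma adjusted p = 0.308).

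**Figure D4:**
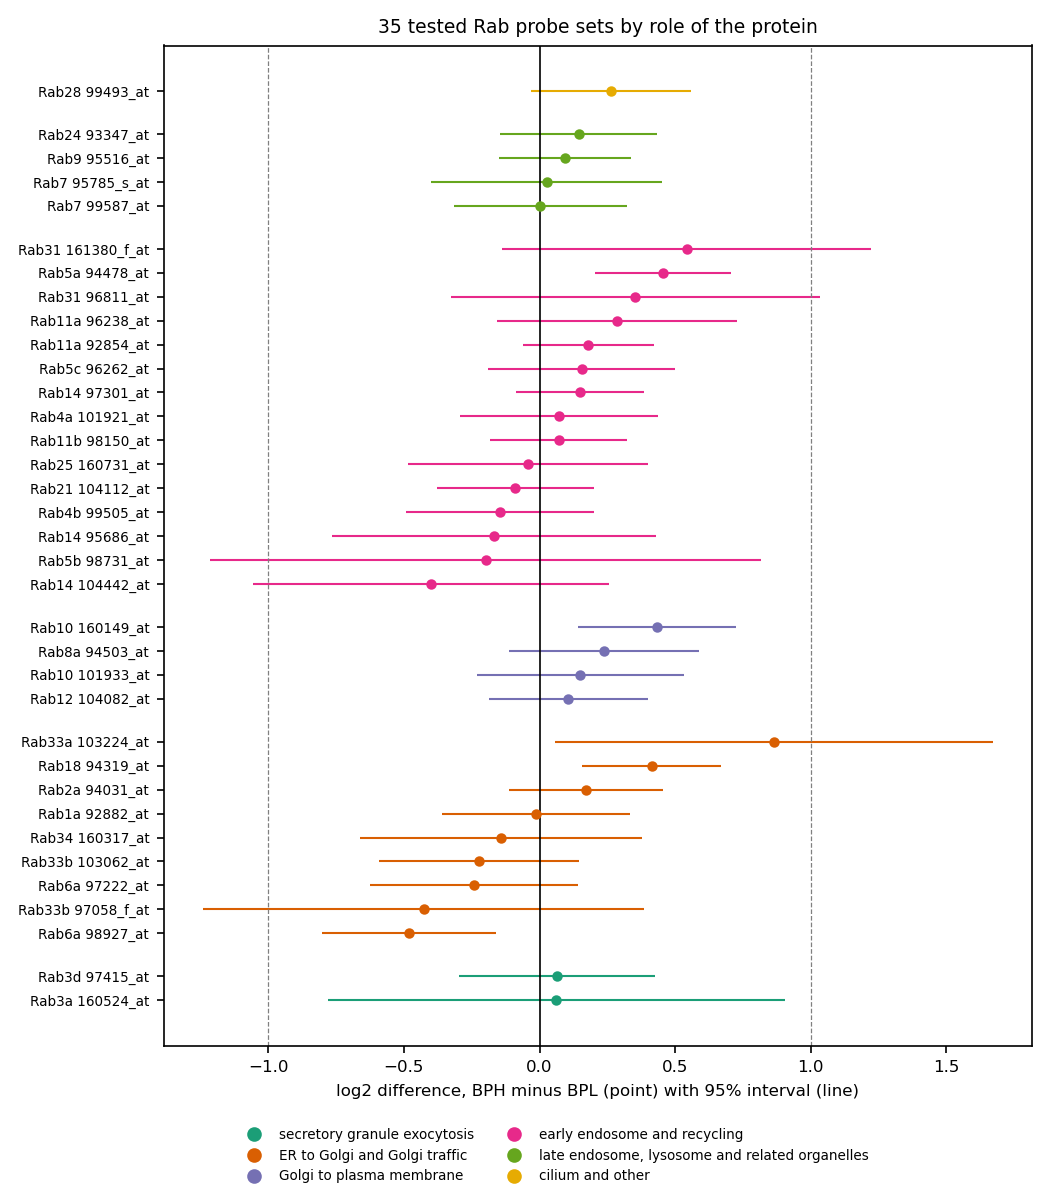
Log2 differences (BPH minus BPL, points) with 95% intervals (lines) for the 35 tested Rab probe sets, coloured by the role of the protein, with dashed lines at a 2-fold change. The unadjusted intervals of Rab5a (0.20 to 0.71), Rab18, Rab10 and Rab6a (first probe set of each) and Rab33a do not include 0, and no point lies beyond a dashed line.

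Of 10 Rab genes with more than 1 probe set, 7 had at least 2 that were tested, and for 6 of these 7 the tested probe sets had differences of the same sign (Rab6a, Rab7, Rab10, Rab11a, Rab31 and Rab33b). Rab14 was the exception, and the values of Rab7, Rab31 and Rab33b changed sign in at least 1 probe set under some alternatives. Probe sets of 1 gene share the same RNA and are not replicates. Affymetrix marks some probe sets as able to detect related transcripts, which applies to the first of Rab31, the second of Rab33b and the second of Rab7, and close paralogs such as Rab5a, Rab5b and Rab5c or Rab11a and Rab11b may share signal.

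The remaining 9 of the 44 probe sets were too dim to test, with single values from 10.9 to 1783. They include the only probe sets of 6 genes: Rab3b, Rab8b, Rab17, Rab20, Rab23 and Rab35. The others are second probe sets of Rab1a, Rab2a and Rab3a, whose first ones were tested. The untested probe set of Rab2a lay below the floor on all 6 arrays. With no filter on low values all 44 were fitted and limma called 0 of them, against 0.419% of all probe sets, and the lowest adjusted p was 0.0545. An unadjusted p under 0.05 was then found for 8 of the 44 (18.2%), against 13.6% of all probe sets. The Rab share thus lay above that of all probe sets without the filter and below it with the filter (14.3% against 19.3%). None of the 9 dim probe sets was among the 8, their lowest unadjusted limma p being 0.115. The differences of the 35 were unchanged, but their variance estimates were refitted. For Rab11a (first probe set) the standard error went from 0.106 to 0.043 and the limma p from 0.123 to 0.00954. For Rab33a the limma p went the other way, from 0.0387 to 0.0812.

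Proteins that run the Rab cycle and those that bind active Rabs were drawn from lists of gene names. These lists were chosen with earlier results of these data known. Of the Rab cycle proteins, 34 probe sets of 29 genes were tested and 0 were called in limma. At an unadjusted p under 0.05 there were 4, all higher in BPH, which is 11.8% of those tested, against 19.3% of all probe sets. Evi5 and Tbc1d24, both with the TBC domain of Rab GTPase-activating proteins, had differences of 0.43 (interval 0.09 to 0.77, adjusted p = 0.167) and 0.63 (interval 0.12 to 1.14, adjusted p = 0.176). Tbc1d1, a GTPase-activating protein for Rabs of glucose transporter traffic, had 0.62 (adjusted p = 0.219), with 1503, 1903 and 1769 in BPH and 1422, 1237 and 791.3 in BPL. Hps1, part of an exchange factor for Rab32 and Rab38, had 0.38 (adjusted p = 0.241). These 4 genes, named for having the smallest p, had no overlap between the strains. Over the whole list 5 of 34 probe sets were separated in this way (14.7%, against 26.5% of all probe sets). The probe set of Tbc1d24 is one marked as able to detect related transcripts. The list median was 0.02, against 0.03 for all probe sets.

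Among Rab effectors 23 probe sets of 17 genes were tested, again with 0 called in limma, and 2 at an unadjusted p under 0.05 (8.7%, against 19.3% of all probe sets). Myo5b, a motor that binds Rab11 on recycling endosomes, had -0.47 (interval -0.91 to -0.03, adjusted p = 0.234), with overlapping strains. Rabep1, which encodes the Rab5 effector rabaptin-5, had 1138, 1663 and 1722 in BPH and 899.7, 1095 and 1085 in BPL. All BPH arrays were higher, by 0.54 (interval 0.01 to 1.06, adjusted p = 0.248). Pik3c3, the phosphoinositide kinase that Rab5 recruits to endosomes, had 0.46 (interval -0.02 to 0.94), and Uso1, a Golgi tether that binds Rab1, had 0.29 (interval -0.04 to 0.62). The list median was 0.16.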

How the data were processed

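Adrenal RNA of 3 BPH and 3 BPL arrays was measured on Affymetrix MG_U74Av2 arrays. The authors deposited 1 intensity per probe set and array on a linear scale, without detection calls, and the program that computed it is not given in the sources used. The 2% trimmed mean of an array was 2499.53 to 2499.59, so no scaling was added; array medians lay between 1003.45 and 1114.65. The number of arrays limits the precision.

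Intensities under the 20th percentile of the table (201.3) were raised to it and taken to log2, which understates changes of dim genes. No tested Rab value lay there. After removing 66 control probe sets, 7293 with a mean log2 value at or above the 40th percentile (an intensity of 668.1) were fitted in limma 3.58.1 (R 4.3.3; lmFit, then eBayes with its trend option). Tests were two-sided, with Benjamini-Hochberg adjustment over all 7293. The fit was tested on simulated data. Means ± SD are of deposited intensities. Intervals are 95% limma intervals, not adjusted for the number of probe sets.

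Genes came from the platform annotation; all 44 Rab probe sets matched a current RefSeq gene. Rab symbols, roles and lists were chosen with earlier results of these data known. The named Rab probe sets are any called ones, the 8 with the smallest p in each direction, the tested granule Rabs and the tested probe sets of genes with several. Up to 4 per pathway list are named by smallest p. Rab5b, Rab5c, Rab9, Rab24, Rab34 and other members outside that rule are given for completeness. Cell type markers were compared as sums of deposited intensities. Alternatives changed the normalization, floor, filter, variance model, blocking, gene summary or the arrays used. Comparison lists outside the Rab pathway are not reported here.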

Additional observations from a re-analysis of the deposited data

How the results depend on the processing

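The Rab probe sets, the Rab cycle proteins and the Rab effectors each had 0 calls in limma under all 20 alternatives, and the lowest adjusted p of a Rab probe set was 0.0545. The number of Rab probe sets at an unadjusted p under 0.05 was 1 with the fluidics station blocked and 0 within station 1, where 1 BPH array carries the comparison. The count over all probe sets, 184 as reported, was 52 without the filter, 83 without the intensity trend, 18 with the station blocked and 7 within station 1, and leaving out 1 array gave 42 to 361. The cause was not tested. With the replicate block it was 124, and 0 for Rab probe sets. Deviations of same-numbered arrays correlated at -0.22, -0.08 and 0.01, and those of differently numbered arrays at -0.085 to 0.156. No pairing by number was seen, but with 3 arrays per strain this cannot exclude it. The Rab median of 0.07 was 0.042 under quantile normalization, 0.106 with the filter at the 60th percentile and 0.027 to 0.124 when 1 array was left out.

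Of 26 named Rab probe sets, 18 kept their sign under every alternative run, Rab5a, Rab18, Rab33a and both probe sets of Rab6a and Rab10 among them. The 8 others, all uncalled, turned in 25 of the 498 values of the 26. Many of these values could not turn. A lower floor, another filter or variance model, the replicate block and the brightest probe set leave a difference unchanged. Where the strains did not overlap, leaving out arrays or blocking the station cannot turn the sign either. This applies to Rab5a, Rab18, Rab33a and the first probe sets of Rab6a and Rab10, so their kept signs say little. Rab14 (first probe set) was -0.140 as the mean of its probe sets. With the station blocked, and equally within station 1, Rab1a was 0.061, Rab33b (second) 0.023 and Rab7 (first) -0.074. Without the muscle-high arrays Rab1a was 0.084, Rab3d -0.063 and Rab7 (second) -0.036. Scaling to one median gave 0.012 for Rab1a, and quantile normalization -0.030 for Rab7 (first). Leaving out 1 array gave -0.094 to 0.105 for Rab1a, -0.009 to 0.621 for Rab31 (second), -0.673 to 0.044 for Rab33b (second), -0.379 to 0.368 for Rab3a, -0.010 to 0.205 for Rab3d, -0.086 to 0.220 for Rab7 (second) and -0.074 to 0.118 for Rab7 (first). The sign turned without BPH 1 for Rab1a, Rab33b, Rab3a and Rab3d, without BPH 2 for Rab7 (first), without BPH 3 for Rab3d, without BPL 1 for Rab1a and both Rab7, without BPL 2 for Rab31 and both Rab7, and without BPL 3 for Rab3a.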

Other observations

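Rab3b, a Rab of regulated secretion, was too dim on average to be tested but not on every array. Its intensities were 863.6, 194.3 and 391.6 on BPH 1 to 3 and 215.3, 292.1 and 1783 on BPL 1 to 3, so that BPL 3 stood highest and BPH 1 next. Ddc, an enzyme of catecholamine synthesis in chromaffin cells, had 5596, 3604 and 4329.5 in BPH and 2751, 2607 and 10338 in BPL. BPL 3, BPH 1 and BPH 3 were the 3 highest arrays for both, in that order. Th, the first enzyme of that pathway, had 25099, 21439 and 24862 in BPH and 12618, 9236 and 22493 in BPL, where BPL 3 was the third highest array. Rab3a did not follow, with its lowest value (784.9) on BPL 3. Nor did the chromaffin markers as a list. Their sum over 12 probe sets was 271048 on BPL 3, below every BPH array (275872 to 314690). The Rab3b value on BPH 2 (194.3) lay under the floor of 201.3. Rab3b, Ddc, Th and Rab3a were set side by side after their values were seen, and no test was made.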
